A study of Chlorocebus aethiops with 12 samples.

Results

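Under dexamethasone, COS-1 cells transfected with S211A and MDFIC were compared with COS-1 cells transfected with S211A alone. The comparison used the 6 Dex arrays of a series of 12, 3 from each transfection, chosen by the treatment and transfection given in the sample labels. COS-1 is a fibroblast-like cell line from the kidney of the African green monkey. S211A is a form of the glucocorticoid receptor in which the serine named S211 is replaced by alanine. Both groups were transfected with FuGENE6, moved to charcoal-stripped serum the next day, and treated with 100 nM Dex for 6 hours. Both carried S211A, so the comparison holds the receptor and the hormone constant and varies MDFIC. The other 6 arrays held the same transfections under vehicle for 6 hours, again 3 of each. Cells with an unmutated receptor were not analysed here. The labels call the 3 samples of a group biological replicates. The study asks whether MDFIC changes the genes the receptor regulates in a way that depends on phosphorylation of S211.

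The glucocorticoid receptor is a transcription factor that stays mostly in the cytoplasm, bound to chaperones, until a steroid such as dexamethasone binds it. The bound receptor moves to the nucleus and raises or lowers transcription of its target genes, and S211 is phosphorylated when hormone is bound. MDFIC, the MyoD family inhibitor domain-containing protein, is known to bind the receptor before hormone arrives, and also binds other regulators of transcription.

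A level below is the log2 of an array's processed intensity minus the log2 of that array's 75th percentile, so a level of 0 equals the 75th percentile. A difference is the S211A+MDFIC level minus the S211A level, also in log2. The deposited files give each probe's target as an accession without its gene, so accessions stand in place of genes, and at most 2 that rose and 2 that fell are named. MDFIC was therefore not picked out by name, and whether any rise below is the transfected MDFIC transcript itself was not tested. The probes are of a human design and their match to monkey transcripts was not tested. In RNA from whole cultures, a change of level in each cell and a change in the share of cells that hold the level cannot be told apart.

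Between 71.7% (S211A replicate 1) and 80.6% (S211A+MDFIC replicate 1) of probes were well above background on the 6 Dex arrays. S211A replicate 1 was hybridised on slide 1, S211A replicates 2 and 3 on slide 2, and all 3 S211A+MDFIC Dex arrays on slide 3. No slide held both Dex groups, so among these 6 arrays slide and MDFIC cannot be told apart. Arrays of both groups stood apart. S211A replicate 1, alone on slide 1, differed from replicates 2 and 3 of S211A by a median absolute difference of 0.16 and 0.13, whereas those 2 arrays differed from each other by 0.10. It lay at -56.7 on the first principal component of the 6 arrays (42.5% of the variance), where the other 5 lay between -12.0 and 26.9. On the second component (23.6%), S211A replicate 2 lay at 44.1 and the other 5 between -24.7 and 1.0. S211A+MDFIC replicate 2 also stood apart from its own group. Its median absolute difference was 0.18 from replicate 1 and 0.19 from replicate 3 of S211A+MDFIC, whereas those 2 arrays differed from each other by 0.11. It differed from the 3 S211A Dex arrays by 0.12 to 0.15.

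With limma and Benjamini-Hochberg adjustment over the 24586 accessions tested, 105 differed between the Dex groups at an adjusted p under 0.05, which is 0.427% of those tested. Of these, 65 were higher with MDFIC (0.264%) and 40 were lower (0.163%). The differences were mostly small: 9 accessions differed by at least 4-fold, 14 by 2-fold to under 4-fold, 34 by 1.5-fold to under 2-fold, and 48 by less than 1.5-fold. The median absolute difference was 0.60 over the 105 and 0.11 over all accessions tested. The 65 rises had a median difference of 0.70 and the 40 falls a median of -0.53. Of the 23 accessions that differed by at least 2-fold, 18 rose and 5 fell. The smallest rise called was 0.28 and the smallest fall 0.29 in size. The last accession inside the threshold had an adjusted p of 0.0475 and the first outside it 0.0502, both by limma.

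**Figure D1:**
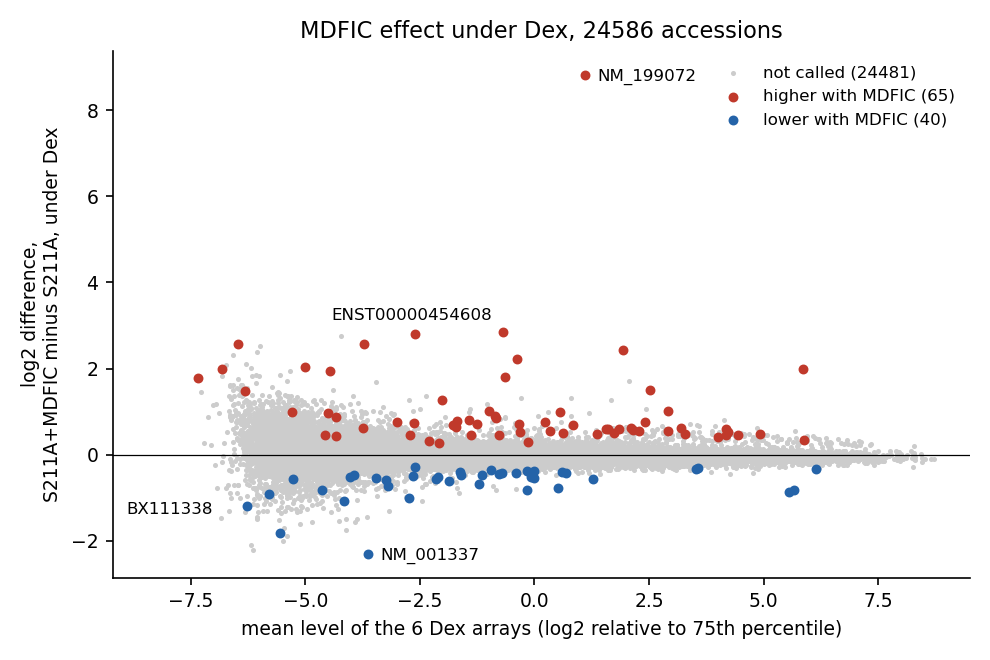
Each point is 1 of 24586 accessions, with the mean level of the 6 Dex arrays on the x axis and the log2 difference, S211A+MDFIC minus S211A under Dex, on the y axis. Red points are the 65 accessions called higher, blue points the 40 called lower, and NM_199072 stands alone at 8.83.

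The 3 arrays of one Dex group did not overlap with the 3 of the other for any of the 105 accessions. Over all accessions tested, 3683 (15%) did not overlap, so separation of 3 arrays from 3 was common. The median gap of the 105 from the S211A mean was 0.65 on S211A+MDFIC replicate 1, 0.56 on replicate 2 and 0.62 on replicate 3.

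NM_199072 showed the largest difference of the comparison. Its levels were -3.23, -3.42 and -3.30 on the S211A Dex arrays and 5.39, 5.13 and 6.00 on the S211A+MDFIC Dex arrays. In unscaled processed intensity these arrays read 93.5, 85.4 and 91.8 against 44977, 35298 and 54801. The groups were therefore far apart, with a spread of 0.09 (SD, n = 3) around the S211A mean and 0.45 (SD, n = 3) around the S211A+MDFIC mean. The difference was 8.83 (SE 0.18), or 454-fold, with a limma adjusted p of 1.35e-08. Under vehicle the same accession differed by 8.70, and the effects under Dex and vehicle differed by 0.12 (limma adjusted p = 0.876, 95% half-width 0.56). A second probe of this accession read differently. It gave -0.39 (SE 0.26) under Dex and 0.02 under vehicle, so the rise was carried by 1 of its 2 tested probes. The mean of both probes rose by 4.22.

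ENST00000454608, named by an Ensembl transcript identifier, was the second of the named rises. Its levels were -3.93, -4.36 and -3.72 on the S211A Dex arrays and -1.52, -1.22 and -0.88 on the S211A+MDFIC Dex arrays. The lowest S211A+MDFIC array stood above the highest S211A array by far more than either group's spread. Its difference was 2.80 (SE 0.18), or 6.96-fold, with a limma adjusted p of 0.000119. Under vehicle it differed by 3.46, or 11.01-fold. The effect was smaller under Dex by 0.66, which did not pass (limma adjusted p = 0.452). The level fell by 0.72 with Dex in S211A+MDFIC cells (limma adjusted p = 0.0337), while in S211A cells the Dex response was -0.06 (adjusted p = 0.900). With slide as a block the difference was 2.86 and the call was lost (limma adjusted p = 0.0963). With the 6 Dex arrays fitted alone it was also lost (adjusted p = 0.0552).

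NM_001337 was the largest fall. Its levels were -2.36, -2.45 and -2.63 on the S211A Dex arrays and -4.79, -4.70 and -4.87 on the S211A+MDFIC Dex arrays. In unscaled processed intensity these were 172, 167 and 146 against 38.7, 38.8 and 29.3. Both groups were tight and well above background on every array. The difference was -2.31 (SE 0.08), a 4.94-fold fall, with a limma adjusted p of 1.34e-06. Under vehicle it was -2.37, and the change between the effects was 0.06 (limma adjusted p = 0.862, 95% half-width 0.25). Dex itself lowered NM_001337 in both transfections, by a difference of -0.78 in S211A cells (limma adjusted p = 0.000316) and -0.72 in S211A+MDFIC cells (adjusted p = 0.000513). The S211A+MDFIC Dex group thus had the lowest level of the 4 groups.

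BX111338 was a dim fall. Its levels were -5.61, -5.45 and -5.95 on the S211A Dex arrays and -6.87, -6.78 and -6.94 on the S211A+MDFIC Dex arrays. Its probe was well above background on 3 of 3 S211A Dex arrays and on 0 of 3 S211A+MDFIC Dex arrays. The fall was therefore a bound, at least 1.92-fold lower, where the bound sets the S211A mean against the lowest signal well above background on each S211A+MDFIC array. The fitted difference was -1.20 (SE 0.19, limma adjusted p = 0.0325). The probe passed the filter on dim probes only through S211A Dex and S211A+MDFIC vehicle, the groups where it was above background. The p therefore sets signal against background readings and is given as a description only. Without that filter the limma adjusted p was 0.0555. The test of the effect under Dex against that under vehicle did not pass (limma adjusted p = 0.0527), and the probe was above background on 0 of 3 S211A vehicle arrays, so no size is given for vehicle. The fall was -0.25 with normexp background correction (adjusted p = 0.491) and -0.95 with slide as a block (adjusted p = 0.998). Leaving out any of 6 single arrays also ended its call: S211A Dex replicates 1 and 2, S211A+MDFIC vehicle replicates 1 and 2, and S211A+MDFIC Dex replicates 1 and 3.

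**Figure D2:**
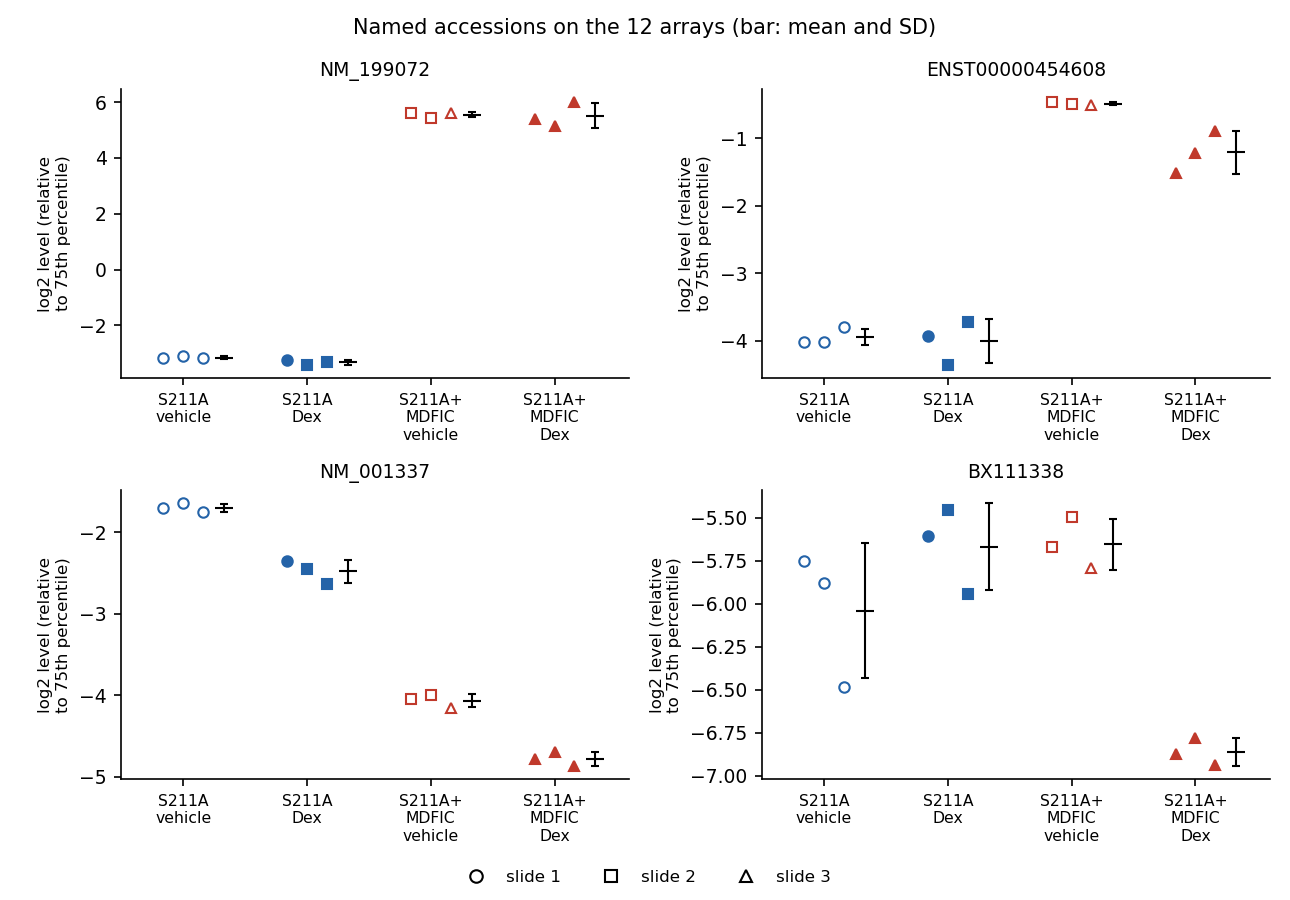
The level of each named accession (y axis, log2 relative to the array's 75th percentile) is drawn for the 12 arrays in 4 groups, with the mean and SD at the right of each group and the marker shape giving the slide. NM_199072, ENST00000454608 and NM_001337 separate by MDFIC under vehicle and under Dex, whereas BX111338 is low in the S211A+MDFIC Dex group.

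The other 6 rises of at least 4-fold had differences between 2.05 and 2.84 under Dex, and between 2.18 and 3.44 under vehicle. In each of the 6 the lowest S211A+MDFIC array exceeded the highest S211A array by at least 1.15. Of the 6, 2 had probes that were not well above background on any S211A Dex array, so the sizes of those differences are fitted values. The largest limma adjusted p among the 6 was 0.0410, and 2 of the 6 were also called with slide as a block. With normexp background correction 3 of the 6 moved by over 1.5 times, from 2.58 to 0.37, from 2.56 to 1.25 and from 2.05 to 0.49, and the first of these was called in 2 of the 12 fits that left out 1 array.

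Of the 105, 96 were well above background on all 6 Dex arrays, a share close to that of all accessions tested (22347 of 24586). Another 3, all rises, were above background on 3 S211A+MDFIC Dex arrays and no S211A Dex array, and 2 falls showed the reverse. Over all accessions tested these counts were 86 and 8. Among the rises, 2 reached background on 3 arrays in neither Dex group, and entered the test through a vehicle group. Rises and falls differed in brightness: with accessions split by mean level into 4 equal bins, from the dimmest to the brightest, the rises numbered 11, 9, 20 and 25, and the falls 5, 14, 15 and 6. By kind of identifier, RefSeq mRNA accessions gave 57 of the 105 calls, 30 higher and 27 lower, from 16443 tested (0.347%). Assembled sequence clusters gave 11 calls from 1116 tested (0.986%), of which 10 were higher.

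Over all 41000 probes, 103 were well above background on the 3 S211A+MDFIC Dex arrays and on none of the 3 S211A Dex arrays, and 8 showed the reverse. Under vehicle the same counts were 715 and 2. Of the 103, 9 also showed the pattern under vehicle, and of the 8 none did. The share of probes above background was 67.8% to 71.7% on slide 1, which held S211A replicate 1 under Dex and all S211A vehicle arrays, and 76.2% to 80.6% on the other slides. The part of this share in the counts was not tested.

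The comparison under vehicle shares no array with the comparison under Dex, but both come from one fit with a shared variance. All 3 S211A vehicle arrays were on slide 1 and no S211A+MDFIC vehicle array was, so slide and MDFIC cannot be told apart among the vehicle arrays either. Under vehicle 233 accessions (0.948%) were called, and 60 of them were called under Dex in the same direction. The 60 are 60 of the 105 called under Dex and 60 of the 233 called under vehicle. They comprise 32 rises, where 0.423% of all accessions were called higher under vehicle, and 28 falls, where 0.525% were called lower. All 18 rises of at least 2-fold under Dex were among the 32. The median difference of the 32 rises was 1.15 under Dex and 1.43 under vehicle, and 25 of the 32 were larger under vehicle. Only 24 of the 32 were well above background on all 12 arrays, so the other sizes rest partly on background readings. With normexp background correction the median of the 32 under Dex was 0.66 and 20 of the 32 were still called. With slide as a block, 19 of the 233 vehicle calls were still called. The 28 falls had a median of -0.53 under Dex and -0.56 under vehicle, and 20 of the 28 were larger under vehicle.

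The test of the MDFIC effect under Dex minus that under vehicle called 66 accessions of all tested (0.268%), and 26 of the 105. It uses the same Dex arrays that called the 105. Among the 60 accessions with the same direction under vehicle, the effect differed for 1, a rise of 1.81 under Dex and 2.52 under vehicle. For the other 59 the test did not pass, and the median 95% half-width of the difference between the effects was 0.36 for the 32 rises and 0.21 for the 28 falls. A change of effect of that size could therefore be missed in these accessions.

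The remaining 25 accessions whose effect differed (0.26% of all accessions changed upward and 0.00813% downward in this test, 64 against 2) were all higher with MDFIC under Dex and all lower with MDFIC under vehicle. Their differences under Dex ran from 0.34 to 0.98 with a median of 0.57. Under vehicle they ran from -0.84 to -0.17 with a median of -0.37, and 5 of the 25 were called lower there. The median change between the effects was 0.86. None reached 2-fold under Dex. All 25 were well above background on all 12 arrays, 18 were in the brightest of the 4 bins, and 12 were RefSeq mRNA accessions. The last 20 of the 105 fell in neither set: 8 rises and 12 falls, not called under vehicle and with no called change between the effects.

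**Figure D3:**
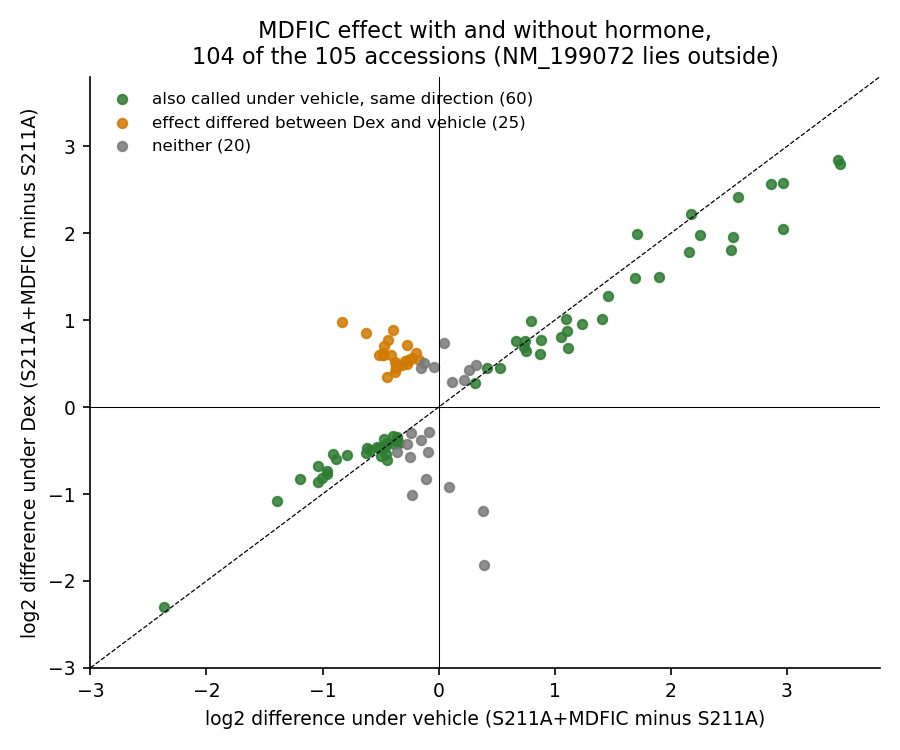
Each point is an accession called under Dex, with the log2 difference (S211A+MDFIC minus S211A) under vehicle on the x axis and under Dex on the y axis; the dashed line marks equal effects. The 60 green points were called the same way under vehicle, the 25 orange points lie at 0.34 to 0.98 under Dex and below 0 under vehicle, and the 20 grey points were in neither set.

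The profile of the 25 accessions over the 4 groups is given as a description only. They were chosen by the change between the effects on these same arrays, which largely fixes it. Relative to the mean of the 4 groups, the S211A arrays had a median level of 0.14 under vehicle and -0.24 under Dex. The S211A+MDFIC arrays had a median of -0.23 under vehicle and 0.31 under Dex. By array, the medians were -0.20, -0.25 and -0.29 in S211A Dex and 0.41, 0.24 and 0.31 in S211A+MDFIC Dex. The vehicle arrays ran the other way, at 0.21, 0.02 and 0.22 in S211A and -0.24, -0.30 and -0.10 in S211A+MDFIC. S211A vehicle replicate 2 and S211A+MDFIC vehicle replicate 3 stood nearest to the 4-group mean. The Dex responses of the 25, which share these arrays, had a median of -0.38 in S211A cells, where 17 of 25 were called falls (2.2% of all accessions tested were), and 0.52 in S211A+MDFIC cells, where 24 of 25 were called rises (6.26% of all accessions).

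These responses could be read within single slides, as a description only: the 25 were chosen by the change between the effects on these same arrays, which largely fixes the signs. On slide 1, S211A Dex replicate 1 was below the mean of the 3 S211A vehicle arrays for all 25, by a median difference of -0.34, as it was for 13132 of the 24586 accessions. On slide 3, the mean of the 3 S211A+MDFIC Dex arrays was above S211A+MDFIC vehicle replicate 3 for all 25, by a median of 0.43, as it was for 14068 of the 24586. The difference between these 2 within-slide responses ranged from 0.59 to 1.54 with a median of 0.74, beside a median of 0.04 over all accessions tested. Each rests on 1 array on one side. With slide as a block, the change between the effects had an unadjusted limma p under 0.05 for 25 of 25 (7.31% of all accessions) and an adjusted p under 0.05 for 0 of 25, while 39 accessions outside the 25 (0.159%) were called.

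**Figure D4:**
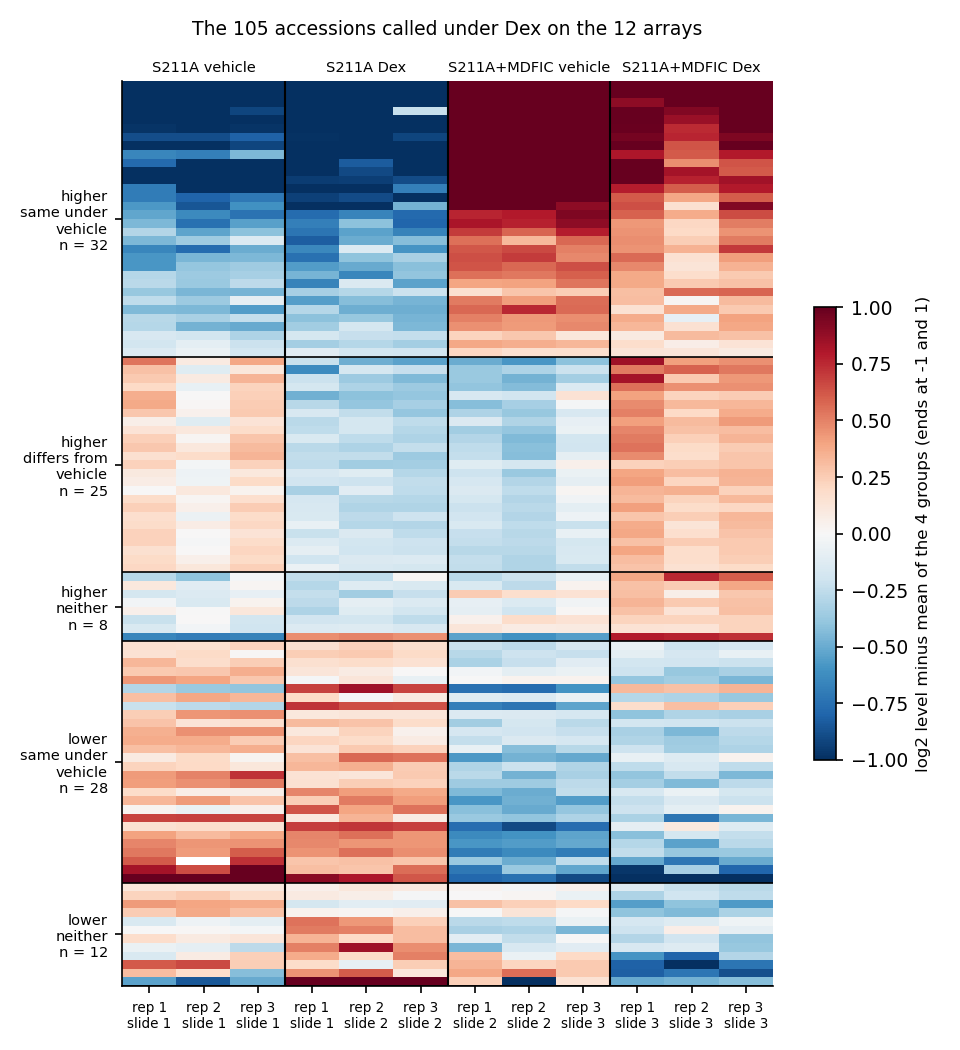
Rows are the 105 accessions called under Dex, grouped by direction and by their behaviour under vehicle, and columns are the 12 arrays with their slide; colour is the log2 level minus the mean of the 4 groups, ending at -1 and 1. The 25 rises whose effect differed are red on the S211A+MDFIC Dex arrays, blue on the S211A Dex and S211A+MDFIC vehicle arrays and mostly pale red on the S211A vehicle arrays.

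The 32 rises shared with vehicle, chosen by their calls in both comparisons, had another profile. Their median relative level in cells with S211A alone was -0.61 under vehicle and -0.69 under Dex, and with MDFIC it was 0.83 under vehicle and 0.52 under Dex. The 28 shared falls were at 0.34 and 0.27 with S211A alone, and at -0.36 and -0.29 with MDFIC. The Dex responses of both sets share the arrays that chose them, so they are a description only. The Dex response of the 32 rises had a median of -0.11 in S211A cells, where 2 were called lower (2.2% of all accessions were). In S211A+MDFIC cells the median was -0.34, and 10 were called lower (3.73% of all accessions were). The 28 falls moved both ways with Dex. In S211A cells 6 were called higher (4.31% of all accessions) and 10 lower (2.2%), with a median of -0.06. In S211A+MDFIC cells 9 were called higher (6.26%) and 4 lower (3.73%), with a median of 0.04.

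The calls rested on the replicates to different degrees. When each of the 12 arrays was left out in turn, 27 of the 105 were called in all 12 fits, 19 rises and 8 falls. All 27 were among the 60 called in the same direction under vehicle, and 16 of the 27 differed by at least 2-fold. Of the 25 whose effect differed from that under vehicle, none was called in all 12 fits, and the median number of fits in which one was called was 3. Their median difference was between 0.52 and 0.60 over the 6 fits that left out a Dex array. Leaving out a vehicle array left it at 0.57, since vehicle arrays do not enter the size of this difference. The 25 were chosen on these same arrays, so this narrow range is not a check on them. With slide as a fixed block their median was 0.39. The count of all calls fell to 36 without S211A+MDFIC Dex replicate 1 and rose to 723 without S211A+MDFIC Dex replicate 2, with all 105 among the 723. Leaving out S211A Dex replicate 1 gave 39, its replicate 3 gave 44 and its replicate 2 gave 81, and S211A+MDFIC Dex replicate 3 gave 51. Leaving out a vehicle array, which enters this contrast through the shared variance and the filter on dim probes, gave 54 without S211A vehicle replicate 1, 68 without replicate 3, 126 without replicate 2, and 44, 57 and 96 without S211A+MDFIC vehicle replicates 1, 2 and 3.

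The 66 calls of the change between the effects were less stable. They fell to 4 or fewer when any of 9 arrays was left out, and rose to 264 without S211A+MDFIC Dex replicate 2 (177 upward and 87 downward), 136 without S211A vehicle replicate 2 and 99 without S211A+MDFIC vehicle replicate 3. The 233 calls under vehicle fell to 67 without S211A+MDFIC vehicle replicate 1 or replicate 2, to 81 without S211A vehicle replicate 1, to 101 without S211A+MDFIC vehicle replicate 3, and to between 125 and 154 without S211A vehicle replicates 2 or 3 or S211A Dex replicate 3. They rose to 398 without S211A+MDFIC Dex replicate 2.

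Slide was examined as a block in a fit of all 12 arrays, since each slide held 2 of the 4 groups. The sizes of the Dex difference in that fit rest on slides 2 and 3 only. These slides are linked by the S211A+MDFIC vehicle arrays, of which only replicate 3 is on slide 3. S211A Dex replicate 1 and the rest of slide 1 enter only through the error. With the block, 12 accessions were called in all (0.0488%), and 6 of the 105, among them NM_199072 at 8.78 (limma adjusted p = 0.000386) and NM_001337 at -2.11 (adjusted p = 0.00443). All 105 kept their sign, as did 17303 of the 24586 accessions, with a median absolute difference of 0.59 for the 105. Of the 105, 95 had an unadjusted limma p under 0.05 (4.3% of all accessions did). The 105 were called on these same arrays, which largely fixes both counts, so neither is a check on slide. The median standard error was 0.15 with the block and 0.08 without it. Set against S211A Dex replicate 1 on slide 1, the rises had a median difference of 0.66 and the falls -0.53. Set against S211A Dex replicates 2 and 3 on slide 2, the medians were 0.68 and -0.53. Since the Dex groups did not overlap for any of the 105, the signs against both slides had to match. Both comparisons use the same S211A+MDFIC Dex arrays, and neither can test slide. With the 6 Dex arrays fitted alone, 9 accessions were called, all of them among the 105.

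**Figure D5:**
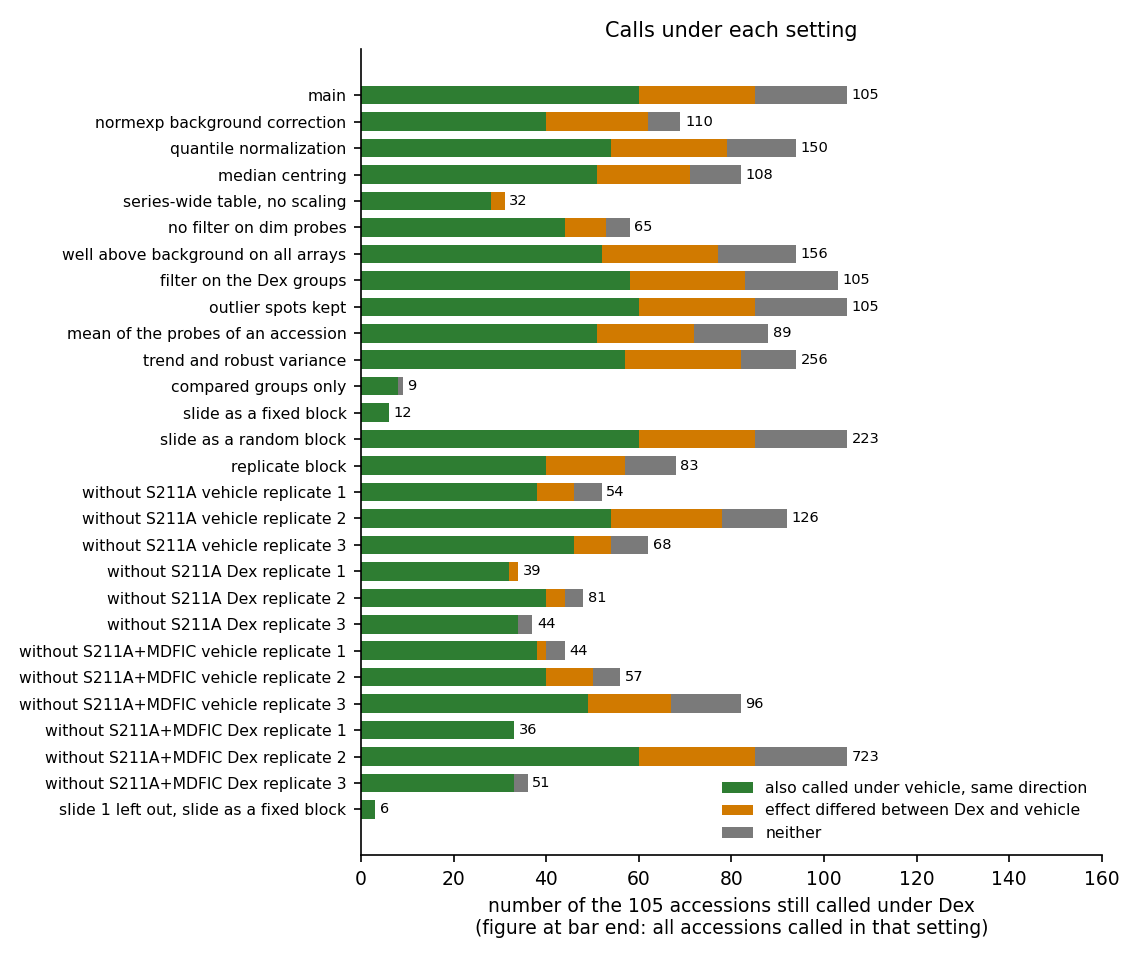
Bars give how many of the 105 accessions were still called under Dex (x axis) in each setting or with each array left out (y axis), coloured by their behaviour under vehicle; the number at the end of a bar counts all accessions called in that setting. Slide as a fixed block kept 6, all of them called the same way under vehicle, and leaving out S211A+MDFIC Dex replicate 2 kept all 105 of 723.

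Several probes of one accession often disagreed. Of the 105, 19 had more than 1 tested probe, with 26 further probes between them. Of these 26, 16 had the sign of the reported probe, 4 of them with an unadjusted limma p under 0.05, and 10 had the opposite sign, 2 of them with such a p. Of all probes fitted singly, 12.9% had such a p. None of the 26 was called when every probe was fitted singly, a fit in which 90 of 31230 probes (0.288%) were called. The median difference, turned to the direction of the call, was 0.56 for the reported probes and 0.04 for the others. The reported probe is the brightest of its accession, so these calls are calls of single probes.

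Large differences outside the 105 were mostly imprecise. Over all accessions tested, 254 (1.03%) differed by at least 2-fold, and 231 of them were not called, 160 higher and 71 lower. Of the 231, 50 were well above background on all 6 Dex arrays, and their median standard error was 0.53 against 0.10 over all accessions. Without adjustment, 3326 accessions (13.5%) had a limma p under 0.05, of which 1629 were higher with MDFIC.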

How the data were processed

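RNA from 12 COS-1 samples was measured on 12 one-colour Cy3 arrays, 4 to a slide. The authors deposited linear intensity readings with the local background already subtracted, made with Feature Extraction 12.0.0.7 according to the file headers; the submitters' processing notes name version 12. The authors' series-wide table repeated these intensities in all 45015 rows and served only for a fit without scaling.

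Each array's processed intensity was put on the log2 scale and its 75th percentile subtracted. The 1639 control spots were dropped and 945 outlier spots became missing values. A probe was kept if some group had it well above background on its 3 arrays, and an accession was read from its brightest probe. All 4 groups entered one limma fit (limma 3.58.1, R 4.3.3; 8 residual degrees of freedom), whose two-sided contrasts were adjusted by Benjamini-Hochberg over the 24586 accessions; a call is an adjusted p under 0.05. Precision is limited by the number of arrays, 3 per group. The fit was tried on simulated arrays with independent errors and no slide effect, which cannot speak to slide. Settings tried were background correction, scaling, filters, averaging of probes, variance model, slide and replicate blocks, and leaving out each array.

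Since no gene symbols were at hand, the lists of receptor partners, pathways and cell type markers could not be applied, and the cell line was not checked by its markers. The naming rule then falls back on 2 rises and 2 falls by accession, those with the largest fitted change among calls with separate Dex groups and a probe above background throughout at least 1 Dex group; identifiers that repeat the probe's own were passed over. The comparison and lists were chosen with earlier results of these data known. Genomic positions and probe sequences were not used here. Figures were drawn with matplotlib 3.10.9.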

Additional observations from a re-analysis of the deposited data

Results flagged for a closer look

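By the limma test of the change between the effects, the MDFIC effect differed for 26 of the 105 accessions called under Dex. Over all accessions tested it differed for 66 (0.268%). The test uses the same Dex arrays that called the 105, so the larger share among them is a description only. With slide as a fixed block, 0 of the 66 were still called. The 66 fell to 4 or fewer when any of 9 arrays was left out. Of the 26, 25 were higher with MDFIC under Dex and lower under vehicle. The last 1 was higher under both, with the smaller difference under Dex.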

How the results depend on the processing

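The direction of NM_199072, ENST00000454608, NM_001337 and BX111338 was the same under every setting run. NM_199072 and NM_001337 kept their call in all 27 settings, the highest limma adjusted p of NM_001337 being 0.04996. ENST00000454608 lost its call in 3 of 27 and BX111338 in 13 of 26. The count of calls under Dex, 105, became 32 without scaling, 65 without the filter on dim probes, 256 with trended and robust variances, 9 with the compared groups only, 12 with slide as a fixed block, 223 with slide as a random block (estimated correlation within a slide -0.07) and 6 with slide 1 left out and slide as a fixed block, a setting chosen after seeing the data. Rises made up 61.9% of calls, 73.6% with normexp, 90.6% without scaling, where the median of all accessions shifted to 0.12, and 41.7% with slide as a fixed block. Leaving out S211A Dex replicate 2 gave 43.2% rises. For S211A+MDFIC Dex, dropping replicate 3 gave 45.1% and dropping replicate 2 gave 50.5%. Leaving out 1 array gave 36 to 723.

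The count under vehicle, 233, became 107 with normexp, 72 without scaling (80.6% rises against 44.6%), 1456 without the filter, 502 with trended and robust variances, 114 with the compared groups only, 75 with slide as a fixed block, 539 as a random block, and 67 to 398 with 1 array left out. The count for the change between the effects, 66, became 125 with normexp, 0 without scaling (943 at an unadjusted limma p under 0.05), 0 without the filter (3320 at such a p), 147 with probes above background on all arrays, 36 with the mean of the probes, 187 with trended and robust variances, 39 with slide as a fixed block, 153 as a random block, and 0 to 264 with 1 array left out. The causes were not tested.

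No pairing by replicate number was seen, though 3 arrays per group cannot exclude it. Same-numbered Dex arrays had deviations correlated at -0.26, -0.18 and 0.18, and different-numbered ones at -0.21 to 0.31. With the replicate block, 83 accessions were called under Dex, 124 under vehicle and 58 for the change between the effects.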
